A study of Rattus norvegicus with 12 samples.

Results

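The hemoglobin and erythroid genes of wound skin were the 3 alpha globin genes *Hba-a1*, *Hba-a2*, and *Hba-a3*, the beta globin gene *Hbb*, *Alas2*, and *Slc4a1*, 6 of the 25620 genes in the count table, chosen by their symbols. All 6 also had values among the 25524 genes of the FPKM table. The alpha globin genes share most of their sequence, so that reads can be placed on the wrong copy, and their reads were therefore summed, which left 4 quantities.

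The 12 libraries came from skin of male Sprague-Dawley rats made diabetic with streptozotocin, each with a full-thickness punch wound on the back. Wounds of the control group received saline, those of the d-SMG group the dried mucus gel of the snail *A. fulica*, those of the s-GAG group (GAG in the labels) its sulfated glycosaminoglycan, and those of the Alg group a commercial alginate dressing. Each of the 4 groups was sampled on day 3, 7, and 14 with 1 library, and how many rats went into a library is not given in the sources used here. The animals bought for the study were young adults, and their age when wounded is not given either. Diabetes and the wound were shared by all 12 libraries, and no unwounded or non-diabetic skin was among them. The libraries were total RNA depleted of rRNA, with 13748887 to 38302461 reads on genes.

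Hemoglobin is the oxygen carrier of red blood cells and is built from alpha and beta globin chains, each holding a heme. *Alas2* encodes the erythroid enzyme that starts heme synthesis, while its relative *Alas1* does so in other tissues. *Slc4a1* encodes band 3, the anion exchanger of the red cell membrane, which is anchored to the spectrin skeleton. Mature red cells of mammals have lost their nuclei, but the youngest of them, the reticulocytes, still carry globin mRNA, and therefore blood within a tissue sample brings globin mRNA with it. In bulk tissue, fewer such cells and less of an mRNA per cell cannot be told apart.

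The sequences before the transcript starts are shown for *Hba-a1*, *Hba-a3*, and *Hbb*, since alpha and beta globin levels followed each other across the libraries although the genes lie on different chromosomes. They are 250 bases each, from RefSeq on GRCr8, at chr10:15842581-15842830, chr10:15816944-15817193, and chr1:167663722-167663971, all on the minus strand and ending at the base before the start. Capitals mark AGATAA or TGATAA (the GATA motif), CACCC (the CACCC box), CCAAT (the CCAAT box), and TATAA (the TATA box), on either strand, so that ATTGG is a CCAAT box read from the other strand.
Hba-a1: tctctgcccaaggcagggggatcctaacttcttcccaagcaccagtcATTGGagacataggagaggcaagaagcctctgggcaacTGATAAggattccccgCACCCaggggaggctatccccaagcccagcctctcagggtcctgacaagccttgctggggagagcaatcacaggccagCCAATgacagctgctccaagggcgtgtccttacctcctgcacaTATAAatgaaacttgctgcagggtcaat
Hba-a3: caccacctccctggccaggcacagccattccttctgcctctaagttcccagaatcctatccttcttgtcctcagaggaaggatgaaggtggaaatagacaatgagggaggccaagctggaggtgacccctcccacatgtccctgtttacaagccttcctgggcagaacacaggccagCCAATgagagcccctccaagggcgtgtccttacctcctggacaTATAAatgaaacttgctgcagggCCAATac
Hbb: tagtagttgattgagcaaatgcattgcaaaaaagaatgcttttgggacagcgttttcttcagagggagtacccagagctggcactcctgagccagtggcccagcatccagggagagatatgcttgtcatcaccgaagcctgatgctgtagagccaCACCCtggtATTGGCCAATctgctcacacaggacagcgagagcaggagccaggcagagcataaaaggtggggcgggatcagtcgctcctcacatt
A CCAAT box was found 71 bases before the start of *Hba-a1*, 73 before that of *Hba-a3*, and 81 before that of *Hbb*, which has a second one on the other strand beside it. The GATA motif TGATAA, 165 bases before the start, and the CACCC box, 149 before it, were found in *Hba-a1* but were not among these letters of *Hba-a3*. *Hbb* had a CACCC box 95 bases before its start. Over all 33469 promoter windows of 300 bases in the same table, 18.9% held a GATA motif, 54.9% a CACCC box, 37.5% a CCAAT box, and 26.2% a TATA box, so that these matches are descriptions and not sites. The window of *Hba-a2* equaled that of *Hba-a1* at 241 of 250 positions, and its GATA motif and CACCC box lie at the same distances. *Hba-a3* resembled *Hba-a1* close to the start, at 75 of the last 80 bases after a shift of 2 bases.

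The first question was how much globin mRNA each wound held. Summed alpha globin was lowest in the control library of day 3, with 13.3 RPM (reads scaled to a common library size after TMM normalization, which evens out differences in composition), and highest in the s-GAG library of day 14, with 442, a ratio of 33.4. In the control group it was 13.3, 99.5, and 160.0 RPM on day 3, 7, and 14, and in the d-SMG group 68.2, 180.3, and 151 on the same days. In the s-GAG group it was 120.6, 15.0, and 442, and in the Alg group 191, 123, and 95.3. The 4 groups thus took different courses, higher at each later day in control, lower at each later day in Alg, and lowest on day 7 in s-GAG. The groups overlapped, with means over the 3 days of 90.9 ± 73.8 in control, 133 ± 58.1 in d-SMG, 193 ± 223 in s-GAG, and 137 ± 49.5 RPM in Alg (SD, n = 3 days). In the order of the 12 levels, 5 of the 11 neighboring pairs had overlapping exact 95% intervals (Clopper-Pearson, covering counting error only), among them the 2 lowest, control day 3 and s-GAG day 7.

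**Figure D1:**
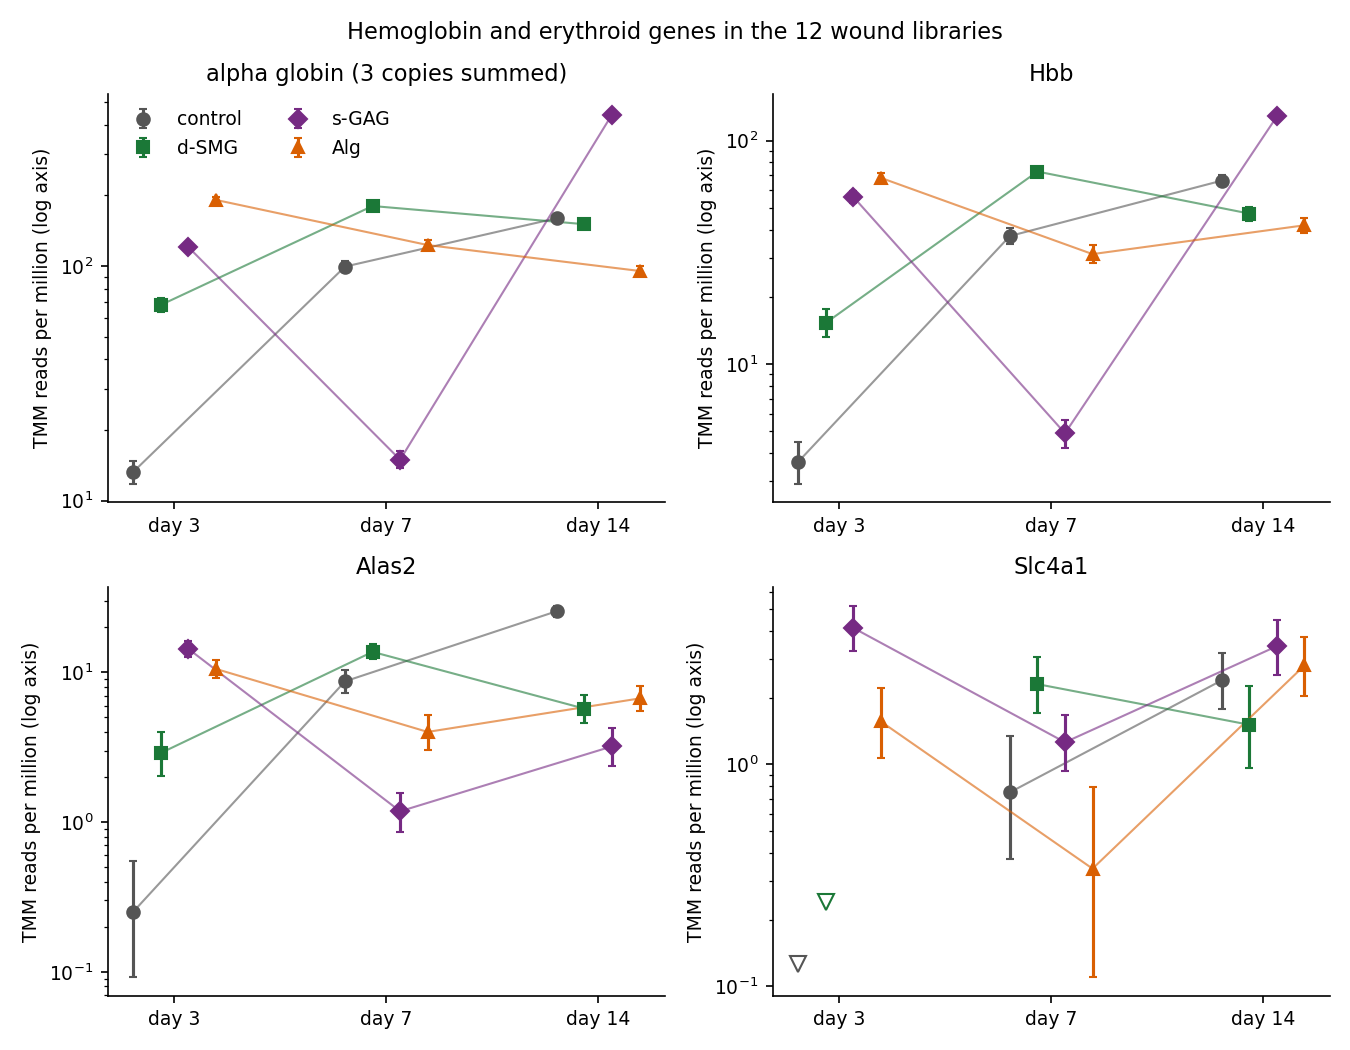
RPM after TMM normalization (log axis) for summed alpha globin, Hbb, Alas2, and Slc4a1 on day 3, 7, and 14, with 1 point per library, lines joining the days of a group (different wounds), and bars for exact 95% counting intervals. Open triangles mark libraries with 0 Slc4a1 reads, drawn at the level that 3 reads would give, and the control library of day 3 has the lowest level in every panel, shared with d-SMG day 3 for Slc4a1.

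*Hbb*, the beta globin with the most reads, followed the same order at the ends. Its level was 3.65, 37.5, and 66.3 RPM in control, 15.3, 72.8, and 47.2 in d-SMG, 56.2, 4.91, and 128 in s-GAG, and 68.2, 31.1, and 41.8 in Alg on day 3, 7, and 14. The lowest and the highest library were again control day 3 and s-GAG day 14, 35.2-fold apart. *Alas2* was at 0.252, 8.72, and 25.7 RPM in control and at 2.89, 13.7, and 5.73 in d-SMG. It was at 14.4, 1.18, and 3.21 in s-GAG and at 10.6, 4.0, and 6.70 in Alg. Its highest library was therefore control day 14 and not s-GAG day 14, and the lowest, control day 3, rested on 6 reads.

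*Slc4a1* had the fewest reads of the 4. It had 0, 11, and 49 reads in control, 0, 50, and 24 in d-SMG, 72, 49, and 50 in s-GAG, and 32, 5, and 45 in Alg. The 0 reads of control and d-SMG on day 3 allow up to 0.125 and 0.179 RPM of the library total, respectively. All 11 neighboring pairs in the order of its levels had overlapping intervals, and *Slc4a1* differences between neighbors were not detectable at this depth.

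Among the alpha globin copies, *Hba-a1* held 70.0% to 87.0% of the alpha reads, *Hba-a2* 12.7% to 29.3%, and *Hba-a3* 0.190% to 1.90%. The *Hba-a2* share was highest in d-SMG day 3 and lowest in Alg day 14. How the authors' counting treated reads that match more than 1 copy is not given in the sources used here, so these shares are uncertain. *Hbb* held 68.1% to 82.1% of the reads on the 5 adult beta globin genes measured. *Hbb-b1*, the next of these, had a mean FPKM of 15.4 against 70.7 for *Hbb*. The embryonic *Hbe1* had at most 4 reads in any library and the theta globin gene *Hbq1b* at most 7. Together the adult alpha and beta globins took from 0.00176% (exact 95% interval 0.00160% to 0.00194%) of all reads in control day 3 to 0.0448% (0.0438% to 0.0457%) in s-GAG day 14.

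Each treated library was next compared with the control library of its day, a comparison of 2 libraries with no replicate check and no test. On day 3, summed alpha globin was 5.15-fold higher in d-SMG than in control (exact 95% counting interval 4.52 to 5.88), 9.10-fold in s-GAG (8.08 to 10.3), and 14.4-fold in Alg (12.9 to 16.3). *Hbb* was 4.19-fold higher in d-SMG, 15.4-fold in s-GAG, and 18.7-fold in Alg. *Alas2* was 11.5-fold (4.80 to 33.4), 57.2-fold (25.9 to 157), and 42.0-fold (19.0 to 116) higher, respectively, over the 6 reads of the control. All 3 treated wounds thus held more globin and *Alas2* mRNA than the saline wound at this first time. *Slc4a1* had 0 reads in the control, and in d-SMG as well. Its exact 95% lower limit over the control was 26.0-fold in s-GAG and 9.54-fold in Alg. Taking 3 reads for the control library, the ratios were 32.8 and 12.4, respectively. Differences of 2-fold or more on day 3 were common among all genes with at least 10 reads in both libraries together: 22.9% for d-SMG, 25.4% for s-GAG, and 20.2% for Alg, against 3 of 3, 4 of 4, and 4 of 4 members with that many reads, all higher. These 3 comparisons share the control library of day 3, in which each of the 4 quantities had its lowest level, *Slc4a1* together with d-SMG.

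On day 7 the direction depended on the treatment. In s-GAG, summed alpha globin was 6.65-fold, *Hbb* 7.63-fold, and *Alas2* 7.37-fold lower than in control, while *Slc4a1* was 1.68-fold higher with an interval of 0.862 to 3.58 that includes no difference. The globins and *Alas2* were thus the 3 quantities with intervals below the control in this library. In d-SMG all 4 were higher, summed alpha globin 1.81-fold, *Hbb* 1.94-fold, *Alas2* 1.57-fold, and *Slc4a1* 3.07-fold. In Alg, summed alpha globin was 1.24-fold higher, *Hbb* 1.20-fold lower, *Alas2* 2.18-fold lower, and *Slc4a1* 2.21-fold lower over 5 and 11 reads, an interval of 0.123 to 1.41. At the threshold of 2-fold either way, 3 of 4 members passed in s-GAG, where 24.4% of all genes did, 1 of 4 in d-SMG (13.2%), and 2 of 4 in Alg (24.4%). The d-SMG count was 4 when RPM were taken of the library total without TMM, and 3 in FPKM.

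On day 14, summed alpha globin and *Hbb* went opposite to *Alas2* in s-GAG. *Hbb-b1* did not, and was lower there as well, at 0.819 times the control (0.706 to 0.949). In Alg, summed alpha globin, *Hbb*, and *Alas2* were all lower than in control, *Alas2* by the most. In d-SMG, *Hbb* and *Alas2* were lower, *Alas2* by more, while summed alpha globin was close to control. *Alas2* was lower in all 3 treated libraries, 4.48-fold in d-SMG, 8.0-fold in s-GAG, and 3.83-fold in Alg. Summed alpha globin differed little in d-SMG, 1.06-fold lower, was 2.76-fold higher in s-GAG (2.65 to 2.88), and was 1.68-fold lower in Alg. The d-SMG difference had the other sign without TMM, at 174 RPM of the library total against 162 in control. It also had the other sign in FPKM, at 280 against 266. *Hbb* was 1.40-fold lower in d-SMG, 1.94-fold higher in s-GAG, and 1.58-fold lower in Alg. *Slc4a1* was at 0.631 times the control in d-SMG (0.370 to 1.05), 1.43 times in s-GAG (0.942 to 2.16), and 1.17 times in Alg (0.761 to 1.78), 3 intervals that include no difference. The s-GAG wound thus held the most globin mRNA of the 12 and less *Alas2* mRNA than the control wound of its day. Past 2-fold were 1 of 4 members in d-SMG (28.7% of all genes), 2 of 4 in s-GAG (57.8%), and 1 of 4 in Alg (21.3%). The member share in s-GAG on day 14 is thus near the background. That library also had the highest FPKM sum, 653222 against 380244 to 480767 in the others, and a TMM factor of 0.743, and d-SMG day 3 had a factor of 0.741 and a summed FPKM of 15.7 over 10 keratinocyte markers against 2340 to 15142 in the others. The part of these features in the globin values was not tested.

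**Figure D2:**
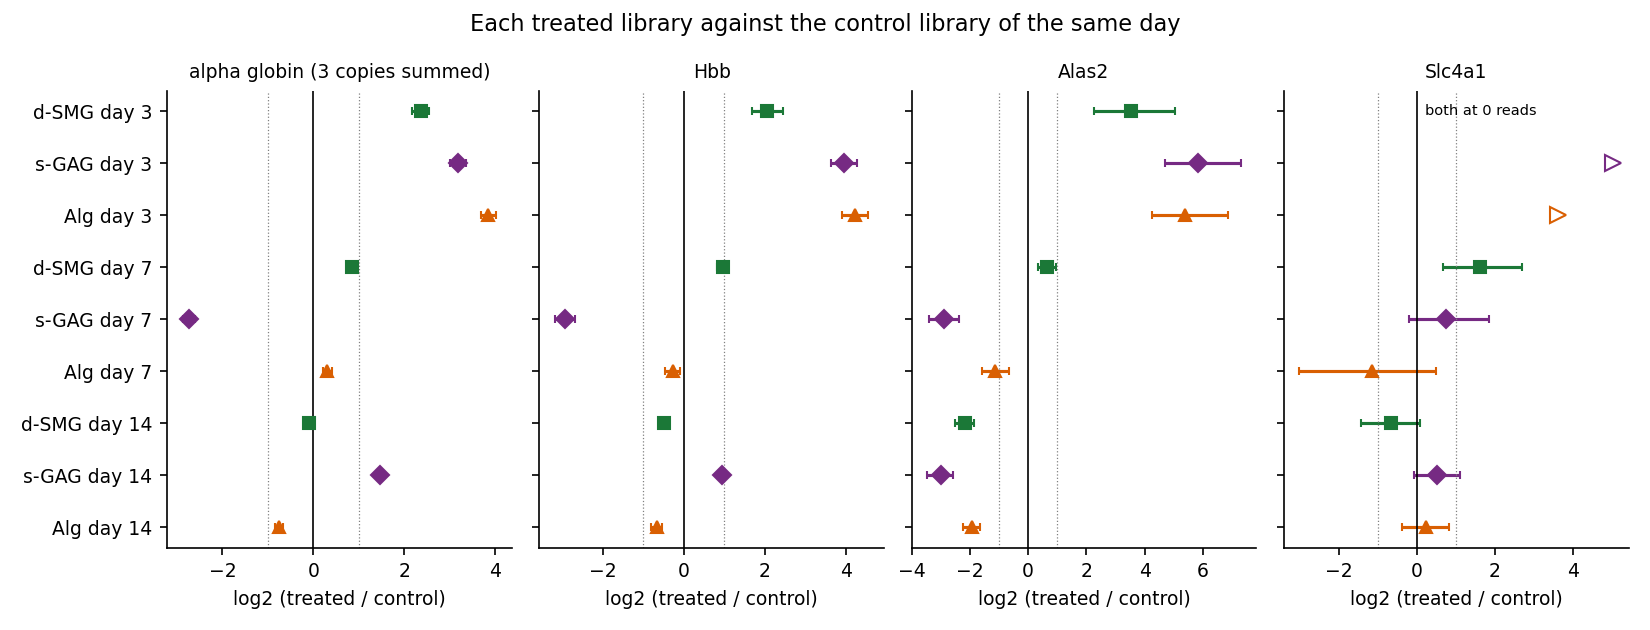
Log2 ratio of each treated library to the control library of the same day for the 4 quantities, with exact 95% counting intervals, dotted lines at 2-fold, and open triangles for ratios to 3 reads where the control had 0 reads. On day 3 all points with a value lie to the right of 0, and on day 14 all 3 Alas2 points lie to the left.

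Whether a treatment or a day had a shared effect was asked over all 12 libraries. The test was the quasi-likelihood test of edgeR with treatment and day as terms, in which the days stand in for the replicates of a treatment and the treatments for those of a day, with Benjamini-Hochberg adjustment over 15670 genes. It therefore asks only for changes that are alike across days or across treatments. None of the 4 quantities passed in any of the 6 comparisons. Over all genes, 0 were called in each comparison as well, which is 0.0% for d-SMG, s-GAG, and Alg against control and 0.0% for day 7 against 3, day 14 against 7, and day 14 against 3. At an unadjusted p under 0.05 there were 210, 1452, 474, 273, 468, and 771 genes, respectively, and DESeq2 called 8, 287, 84, 0, 7, and 41, none of them a member.

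The fitted log2 change of summed alpha globin against control was 0.80 ± 0.99 for d-SMG, 1.02 ± 1.05 for s-GAG, and 1.08 ± 1.06 for Alg (standard error), with adjusted p-values of edgeR of 1, 0.724, and 1. The treated library was above the control of its day on 2 of 3 days in each case. *Hbb* gave 0.59, 0.91, and 0.85, while *Alas2* gave -0.44, -0.95, and -0.71. The opposite signs of globin and *Alas2* were within errors of 1.36 to 1.57 for *Alas2*, and the largest fitted value was that of *Slc4a1* for s-GAG, 2.08 ± 1.45 with an adjusted p of edgeR of 0.634, higher on 3 of 3 days. Between days, summed alpha globin changed by 0.41 from day 3 to 7, by 0.93 from day 7 to 14, and by 1.33 ± 0.92 from day 3 to 14, the last with an adjusted p of edgeR of 0.889 and an interval of -0.74 to 3.40. It was higher on day 14 than on day 3 in 3 of 4 groups, Alg being the exception. Single libraries and days decided these signs: without s-GAG day 14, left out after seeing the data, summed alpha globin was at -0.20 for s-GAG, and without day 14 in all groups *Alas2* was at 1.03, 1.13, and 0.98 for d-SMG, s-GAG, and Alg. Without day 3, summed alpha globin was at -0.091 for Alg. The 95% intervals of all 4 quantities reached above a log2 change of 2 in all 6 comparisons, so that rises of that size lie within the error.

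**Figure D3:**
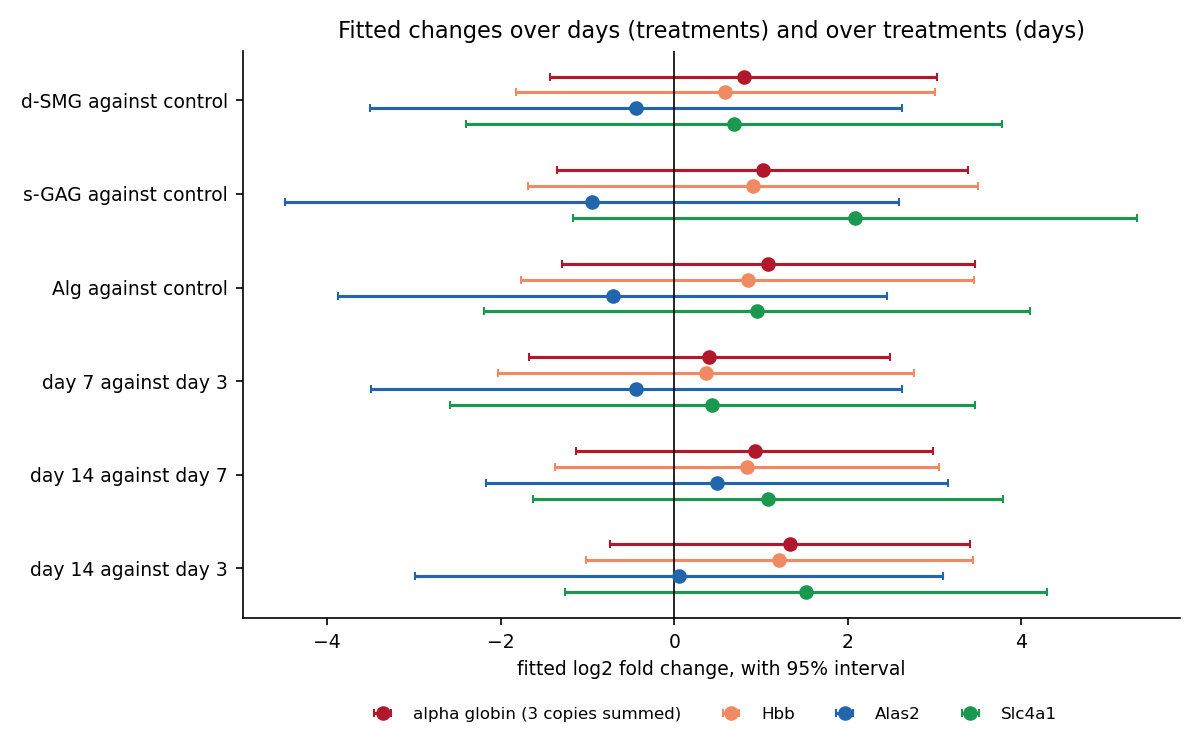
Fitted log2 fold change with its 95% interval (edgeR, 12 libraries) of the 4 quantities in the 6 comparisons, the first named group minus the second. Every interval includes 0, and the 3 Alas2 values against control lie to the left of 0 while those of the other 3 quantities lie to the right.

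A single value per library was also tested by an exact permutation test. The days were permuted within each treatment (1296 arrangements) or the treatments within each day (13824), two-sided in effect since the statistic was the variance of the group means of log2 RPM. The exact p for day was 0.495 for summed alpha globin, 0.468 for *Hbb*, 0.819 for *Alas2*, and 0.25 for *Slc4a1*. For treatment the exact permutation p-values were 0.818, 0.905, 0.962, and 0.517 in the same order. All 8 were 0.962 after Benjamini-Hochberg adjustment over these 8 exact tests. With days and treatments as the only replicates, these p-values measure the spread between such libraries and not between animals.

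The members were then compared with each other per gene length, in FPKM. Summed alpha globin ranged from 22.2 to 554 FPKM, *Hbb* from 5.47 to 144, *Alas2* from 0.11 to 10.9, and *Slc4a1* from 0 to 0.92. The ratio of alpha globin to *Hbb* stayed between 2.40 and 5.0 in the 12 libraries, a range of 2.09-fold, although each of them varied more than 20-fold. With all 5 beta globins in the denominator the ratio lay between 1.78 and 3.68. The log2 levels of alpha globin and *Hbb* had a Pearson's r of 0.98 and a Spearman's rho of 0.96 over the 12 libraries, which are shares of the same library totals. Without the 2 libraries farthest from the median alpha globin level the r was 0.93, and those 2 were control day 3 and s-GAG day 7. The ratio of alpha globin to *Alas2* was far less even. It was 24.4 in control day 14, 202 in control day 3, and 538 in s-GAG day 14, with a median of 63.1. The Pearson's r of the log2 levels of alpha globin with those of *Alas2* was 0.75 and with those of *Slc4a1* 0.61 (n = 12), or 0.26 and 0.66 without the same 2 libraries, so that the relation with *Alas2* rests on them. Alpha globin to *Slc4a1* ranged from 96.0 in s-GAG day 7 to 3143 in Alg day 7, the latter over 5 *Slc4a1* reads.

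**Figure D4:**
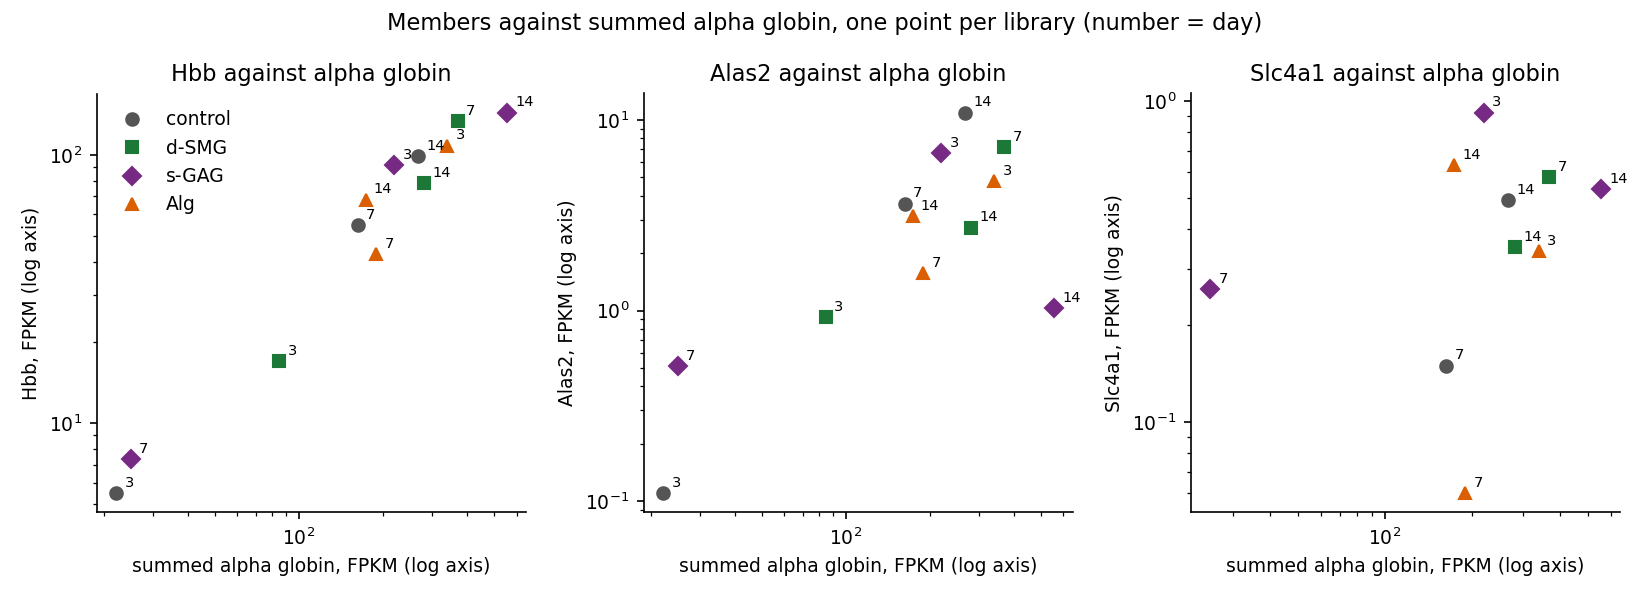
FPKM of Hbb, Alas2, and Slc4a1 (log axis) against that of summed alpha globin (log axis), with 1 point per library, its day beside it, and libraries with 0 Slc4a1 reads left out. Hbb lies along 1 line with alpha globin (ratios 2.40 to 5.0), while the s-GAG library of day 14 lies apart for Alas2 at a ratio of 538.

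Genes outside the members with the pattern most like summed alpha globin were ranked by the Pearson's r of log2 RPM over the 12 libraries. They were LOC120093065 (hemoglobin subunit beta-2, r = 0.97), *Hbb-b1* (0.92), *Crocc*, the ciliary rootlet protein rootletin (0.91), *Tert*, the telomerase reverse transcriptase (0.89), and *Phykpl* (0.85). The 99th percentile of r over all 15669 other genes was 0.61. Genes picked as the highest of so many exceed it by the way they were chosen, so that it lends them no weight. Nearest to *Alas2* were *Hbb-b1* (0.91), the uncharacterized LOC102553085 (0.89), LOC120093788 (0.88), and LOC103694354 (0.88), and LOC102547078 (0.86). Beta globin genes thus stood first in both rankings, although reads of such close copies can be exchanged in counting, and the rest of the *Alas2* ranking had mean FPKM values of 0.131 to 0.508.

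The other heme synthesis genes named here varied less than *Alas2*, which ranged 99.3-fold in FPKM. *Alas1* stayed between 9.27 and 13.2 FPKM, so that the ratio of *Alas2* to *Alas1* ran from 0.00902 in control day 3 to 0.95 in control day 14. *Urod* and *Abcb6*, besides *Alas1* the heme synthesis genes with the highest mean FPKM, ranged from 17.8 to 83.9 and from 5.51 to 17.6 FPKM. *Urod*, which decarboxylates uroporphyrinogen, was highest in s-GAG day 14, and *Fech*, which inserts the iron into heme, was lowest there at 3.23 FPKM. None of the 14 heme synthesis genes passed the edgeR test in any comparison, and the median log2 change of the list lay at -0.0046 for d-SMG, 0.25 for s-GAG, and -0.13 for Alg against control, beside -0.029, 0.0038, and -0.027 over all genes. From day 3 to 7 it was -0.14, with 0 of 14 genes above 0 beside 49.6% of all genes. From day 7 to 14 it was 0.32, with 12 of 14 above 0 beside 51.2%, and from day 3 to 14 it was 0.047, with 8 of 14 beside 51.2%.

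Some genes of erythroid cells were at or near 0. *Gata1* and *Klf1*, transcription factors of erythroid development, had at most 7 and 11 reads in any library, and *Rhag* (the Rh-associated glycoprotein) at most 1. Together with *Gfi1b*, *Icam4*, *Trim58*, *Pklr*, *Hbe1*, and *Hbq1b*, named after their values were seen, these 9 genes reached at most 0.34 FPKM. That low maximum follows from the choice of genes. Other genes of the erythroid and red cell lists reached more, among them *Tal1* at 0.95, *Nfe2* at 0.68, and *Kel* at 0.48 FPKM. *Hemgn* (hemogen) was highest in control day 14 at 1.08 FPKM, as was *Ahsp*, the chaperone of free alpha globin, at 1.12 FPKM. The Spearman's rho of *Hemgn* with *Alas2* was 0.95 and with alpha globin 0.48 (n = 12), at no more than 64 *Hemgn* reads in a library. The genes with the highest mean FPKM in the list of erythroid factors and receptors are also expressed outside the erythroid lineage. *Tfrc*, the transferrin receptor that many dividing cells carry, ranged from 2.42 FPKM in d-SMG day 3 to 28.9 in control day 7, and *Lmo2* and *Zfpm1* had mean FPKM values of 11.3 and 4.03.

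The red cell membrane list was led by genes that other cells also use. *Aqp1*, the water channel of red cells and endothelium, had the highest mean, 27.1 FPKM, followed by *Tmod1* (14.5) and *Sptb* (13.6). *Tmod1*, *Sptb*, and *Ank1*, which encode tropomodulin, beta spectrin, and ankyrin, were all highest in d-SMG day 3, where *Slc4a1* had 0 reads. In that library the 12 skeletal muscle markers, led by *Tnnc2*, *Tnnt3*, and *Myh4*, summed to 79237 FPKM, the highest of the 12 libraries, against 3311 in d-SMG day 7. The Pearson's r of *Ank1*, *Tmod1*, and *Sptb* with the summed muscle markers was 0.91, 0.80, and 0.46, and with alpha globin -0.31, -0.50, and -0.46 (n = 12). The membrane gene *Epb42* (protein 4.2), with little expression elsewhere, had at most 27 reads in a library. Myoglobin (*Mb*), the globin of muscle, ranged from 92.8 to 2489 FPKM, with an r of -0.10 to alpha globin.

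**Figure D5:**
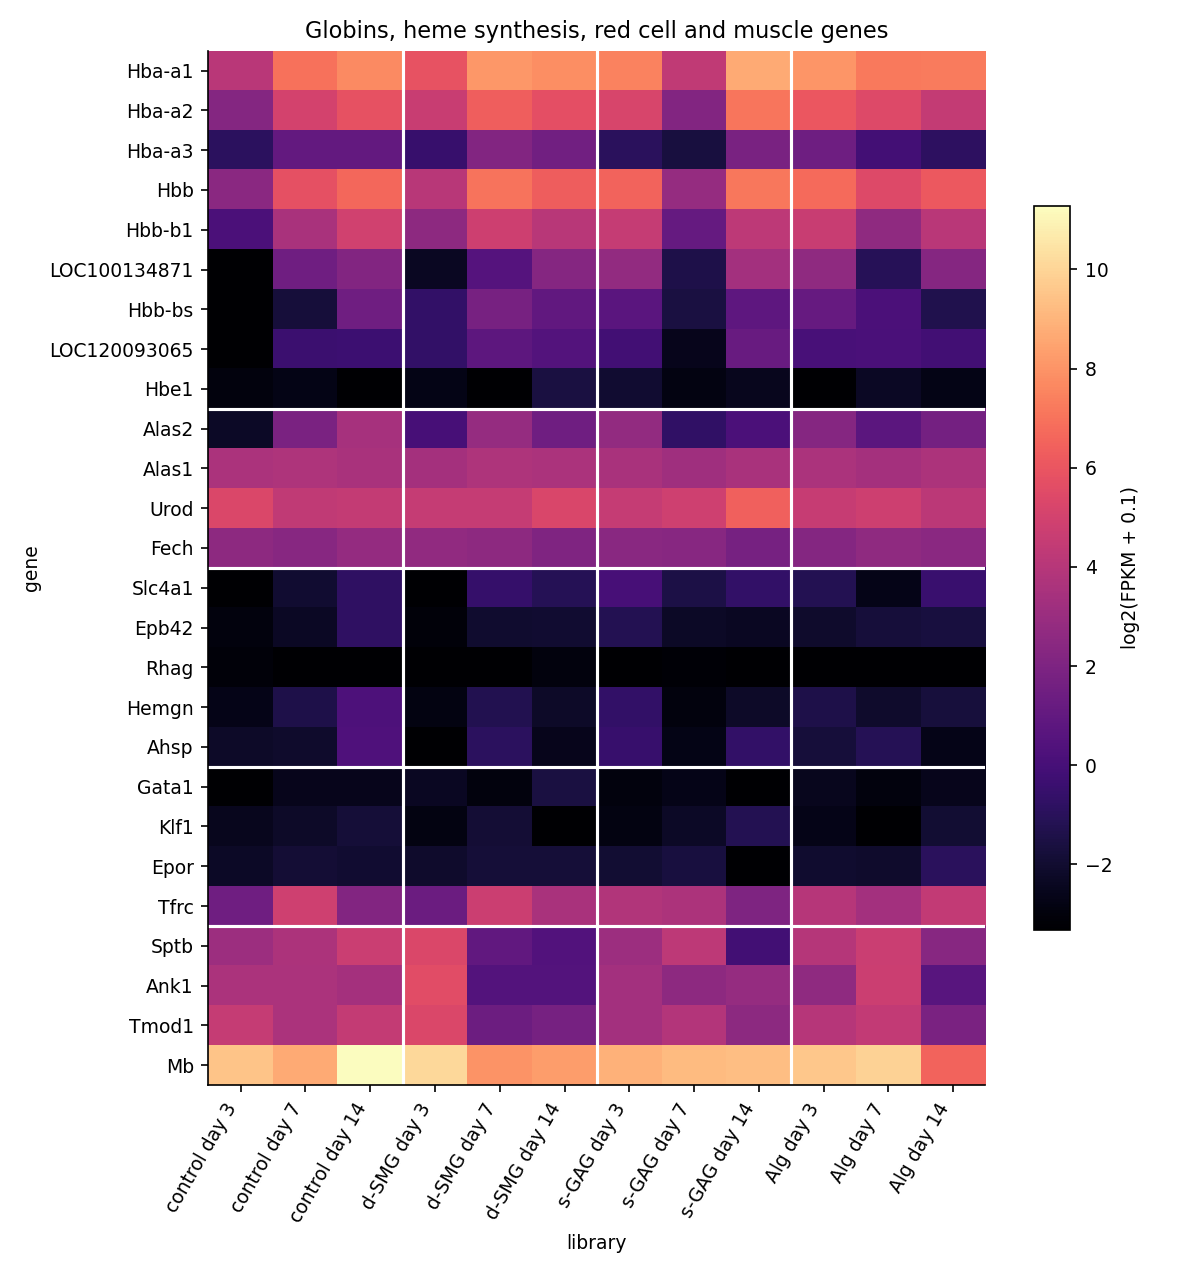
Log2(FPKM + 0.1) of 26 genes (rows) in the 12 libraries (columns), with white lines between treatments and between adult and embryonic globins, heme synthesis genes, red cell genes, erythroid factors and receptors, and genes shared with muscle. The adult globins share their dark columns, control day 3 and s-GAG day 7, the erythroid factors Gata1 and Klf1 stay dark throughout at no more than 11 reads, and Alas1 is even across the row.

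In the lists on red cell enzymes and on the clearance of hemoglobin, heme, and iron, the genes with the highest mean FPKM were *Prdx2* (79.7), *Gpx1* (62.8), and *Cat* (55.1), which break down peroxides in most cells, and *Fth1* (594) and *Ftl1* (83.7), the ferritin subunits, with *Cd163* (58.6), the hemoglobin-haptoglobin receptor of macrophages. *Cd163* ranged from 2.70 FPKM in s-GAG day 14 to 176 in Alg day 14. The library with the most globin mRNA thus had the least *Cd163*. It also had the least *Hmox1*, the enzyme that opens the heme ring, at 1.91 FPKM, while control day 7 and d-SMG day 7 had the most, 107 and 86.1. The s-GAG library of day 14 was also lowest for genes outside this list, such as *Epb41* (1.32 FPKM) and *Xpo7* (2.15). For others, such as *Urod* (83.9), it was highest. In it 57.8% of all genes were 2-fold or more from the control of its day, so that these lows are not particular to *Cd163* and *Hmox1*. Over the 12 libraries the r of alpha globin was -0.17 with *Cd163* and -0.14 with *Hmox1*. The 10 macrophage markers, led by *C1qa*, *C1qb*, and *Mrc1*, summed to 159 to 1034 FPKM and were lowest in s-GAG day 14 as well. Of 83 genes in the 5 lists on heme, red cells, erythroid factors, and clearance, 64 could be tested, and 0 of them passed the edgeR test in any of the 6 comparisons, with 13 of 384 unadjusted p-values under 0.05. Over all 15670 genes tested, 210, 1452, 474, 273, 468, and 771 were under 0.05 in the 6 comparisons. The 13 are therefore not read as an excess.

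Markers of blood and vessels were set beside the globins. Platelet and megakaryocyte markers, 13 genes, summed to 30.5 to 245 FPKM, nearly all of it *Pf4* (mean 103), a gene that macrophages can also express. The platelet genes *Ppbp*, *Gp1ba*, *Gp5*, and *Gp9* had at most 2 reads in any library, while *Itga2b* reached 52, *Clec1b* 22, and *Treml1* 16. After *Pf4*, *Itgb3* and *Gp6* had the highest means, 1.70 and 1.06 FPKM. The Pearson's r of summed alpha globin was 0.05 with the platelet markers, 0.00 with the neutrophil markers, led by *S100a8*, *Lcn2*, and *S100a9*, and 0.09 with the lymphocyte markers, led by *Cd4*, *Cd2*, and *Cd8a*. *Cd4*, which macrophages of the rat also express, made up most of the lymphocyte sum, with a mean of 58.1 FPKM against 6.27 for *Cd2*. Gene by gene, on log2 RPM, the r with alpha globin was -0.20 for *Cd4* and 0.015 for *Cd8a*, and 0.58, 0.53, 0.47, and 0.37 for the T cell genes *Cd3d*, *Cd2*, *Cd3g*, and *Cd3e*. For the 6 platelet genes with enough reads to be tested it was 0.49 for *Itga2b*, 0.39 for *Clec1b*, and -0.03 for *Pf4*. *Treml1*, *Itgb3*, and *Gp6* had -0.13, -0.14, and -0.40. The r of alpha globin with the summed endothelial markers, led by *Plvap*, *Pecam1*, and *Cdh5*, was -0.20 (n = 12 throughout). The endothelial sum was highest in d-SMG day 7 (360 FPKM) and lowest in s-GAG day 14 (117). Over the lists other than the alpha and beta globins, the r of alpha globin ran from -0.56 for the red cell membrane genes to 0.38 for the red cell enzymes, beside 0.98 for *Hbb*. The keratinocyte list, led by *Krt14*, *Krt5*, and *Krt15*, gave 0.29, and the marrow and proliferation list, led by *Top2a*, *Mki67*, and *Cd34*, gave 0.34. *Alas2* had an r of 0.73 with the summed fibroblast and matrix markers, led by *Col3a1*, *Col1a1*, and *Col1a2*, which alpha globin had at 0.37. Library depth and alpha globin had an r of -0.64 and a rho of -0.13 on the log2 scale, and the r was 0.46 without the 2 libraries farthest from the median depth, 1 of them s-GAG day 7, the deepest of all, so that its sign rests on them.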

How the data were processed

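RNA sequencing of wound skin was taken from 12 libraries. The authors deposited raw read counts of 25620 genes and for 25524 genes the FPKM, in which they divided by length and depth. The submitters' processing notes name bcl2fastq, FastQC, TopHat2, and edgeR, and the genome build is not given in the sources used here. Each table holds a further column that matches no described sample, 2 columns in all, which were not used. Counts were tested with edgeR 4.0.16 in R 4.3.3 (TMM, filterByExpr, quasi-likelihood, treatment and day as terms, adjusted p under 0.05), with DESeq2 1.42.0 as an alternative. The test was checked on simulated counts with planted changes that were alike over all days or all treatments. The simulated spread was set in advance and not taken from these data, so that the check does not show the power here. Folds between 2 libraries were taken from TMM-scaled RPM with exact binomial intervals, and a count under 3 was set to 3. Log2 levels for the permutation test had a prior count of 2, and those of FPKM a pseudocount of 0.1. Python 3.11.15 with scipy 1.17.1 was used for these. Library totals of 13748887 to 38302461 reads set the precision, and the intervals cover counting error only.

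The members, the 17 gene lists, and the tests were chosen with earlier results of these data known. Of a list, the 3 genes with the highest mean FPKM were named, with any that passed a test, and the 5 genes most like alpha globin or *Alas2*. The table places the start of the *Alas2* window 4800 bases inside the annotated gene, so that it was not printed, and *Slc4a1* has no entry. Protein sequences were not used here. Symbols matched a RefSeq table (GRCr8) for 21756 genes.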

Additional observations from a re-analysis of the deposited data

Results flagged for a closer look

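Among the 4 libraries of day 14, control stood far from the other 3 in *Alas2*, with 25.7 RPM. The gap was taken on RPM and not on the log2 scale, where it is relatively smaller. On normally distributed values such a gap comes up by chance in about 1 of 20 groups.

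Several treatments stood above control on 1 day and below it on another, with counting intervals on opposite sides of 0, and the difference between the days was not tested, since each rests on 1 library per group. In d-SMG the log2 difference from control was 2.36 on day 3 and -0.086 on day 14 for summed alpha globin, 2.07 and -0.49 for *Hbb*, and 3.52 and -2.16 for *Alas2*. The negative sign for summed alpha globin rests on TMM, an error that the counting intervals do not cover. Without TMM, d-SMG was above control on day 14, at 174 against 162 RPM of the library total. In s-GAG it was 3.19 on day 3 and -2.73 on day 7 for summed alpha globin, 3.94 and -2.93 for *Hbb*, and 5.84 on day 3 and -3.00 on day 14 for *Alas2*. In Alg it was 3.85 on day 3 and -0.75 on day 14 for summed alpha globin, 4.23 and -0.66 for *Hbb*, and 5.39 and -1.94 for *Alas2*. All of the day 3 values are relative to the same control library.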

How the results depend on the processing

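None of the 4 quantities passed under any of the alternatives to the edgeR fit (318 values, lowest adjusted p 0.328) or to the exact permutation test (72 values, lowest adjusted p 0.50). The directions were not stable. The change of *Alas2* from day 3 to 14 was -0.043 when TMM was left out, that of *Slc4a1* from day 3 to 7 was -0.28 with no replicate block, and with only the groups compared that of *Alas2* was 0.48 for d-SMG and 0.39 from day 3 to 7. Leaving out each day in turn gave, against control, -0.091 to 1.64 for summed alpha globin in Alg, -0.068 to 1.91 for *Hbb* in s-GAG, -0.43 to 1.62 for *Hbb* in Alg, -1.39 to 1.03 for *Alas2* in d-SMG, -2.97 to 1.13 for *Alas2* in s-GAG, -1.59 to 0.98 for *Alas2* in Alg, -0.47 to 1.79 for *Slc4a1* in d-SMG, and -0.16 to 1.92 for *Slc4a1* in Alg. Leaving out each treatment in turn gave, from day 3 to 7, -0.18 to 0.97 for summed alpha globin, -0.56 to 1.25 for *Hbb*, -1.58 to 1.10 for *Alas2*, and -0.85 to 1.86 for *Slc4a1*, and for *Alas2* -0.11 to 1.30 from day 7 to 14 and -1.09 to 1.54 from day 3 to 14. Without the d-SMG day 3 library, left out after seeing the data, *Alas2* was at 0.12 for d-SMG and at -0.57 from day 3 to 14, *Hbb* at -0.19 and *Slc4a1* at -0.46 from day 3 to 7. Without the s-GAG day 14 library, likewise, summed alpha globin was at -0.20 for s-GAG and at -0.018 from day 3 to 7. All other directions of the fit were kept.

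Of the members past 2-fold against the control of the day, the count in d-SMG on day 7 rose from 1 to 4 when TMM was left out and to 3 in FPKM, in Alg on day 7 it fell from 2 to 1 in FPKM and to 1 relative to the endothelial markers, and in Alg on day 14 it rose from 1 to 3 relative to the endothelial markers. Relative to these markers *Slc4a1* in Alg on day 7 was at 0.46 in place of -1.14 (log2). Sizes of the folds also depended on TMM. Without it, summed alpha globin in d-SMG day 3 was at 50.6 RPM against 13.2 in control, a smaller fold. In s-GAG day 14 it was at 329 against 162, also smaller, and in d-SMG day 7 at 227 against 97.9, larger. In d-SMG day 14 it was then above control, at 174 against 162. The cause was not tested. With 1 library a group and day, the fit was paired by day for treatments and by treatment for days, and apart from the value of *Slc4a1* above, leaving this block out changed no direction and no call. Depth limits *Slc4a1* most, with at most 72 reads in a library.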
